A study of Mus musculus with 33 samples.

Results

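Oxidative phosphorylation is carried out by the proteins whose genes are described here, the nuclear genes of respiratory complexes I to V, cytochrome c and the assembly factors of complex I. The members were the measured genes whose platform symbol begins with Nduf, Uqcr, Atp5 or Cox4 to Cox8, or is Sdha, Sdhb, Sdhc, Sdhd, Cyc1 or Cycs. The array platform carried 79 such symbols. Of these, 65 had a value on at least 1 array, out of 9672 genes with a value, and 38 of the 65 had a value on all 33 arrays. The 65 comprised 22 subunits of complex I, 6 complex I assembly factors, the locus Ndufs5-ps that is named as a pseudogene, 3 subunits of complex II, 5 of complex III, cytochrome c, 14 genes of complex IV and 13 of complex V. The complex IV group included Ndufa4, which was first listed under complex I, and Cox7a2l, which joins complexes III and IV. The other 14 symbols, among them Ndufs1, Ndufs7, Ndufs8, Ndufv2, Sdhb and Cyc1, had no value here, so several iron-sulfur and heme subunits of the chain were not measured. Subunits encoded by mitochondrial DNA lie outside the rule.

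Complex I takes electrons from NADH and complex II takes them from succinate, and both hand them to ubiquinone. Complex III passes them on to cytochrome c, complex IV passes them to oxygen, and complex V, the ATP synthase, uses the proton gradient built on the way to make ATP. Lymphocytes at rest rely largely on this pathway, and activated lymphocytes raise glycolysis and enlarge their mitochondria as they prepare to divide.

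Spleen cells of female BALB/c mice aged 2 months were cultured with a CpG oligodeoxynucleotide (ODN), which is a ligand of the innate receptor TLR9, with a control ODN, or in medium alone. The CpG ODN was a mixture of ODN 1555 and 1466 in equal amounts and the control ODN a mixture of ODN 1612 and 1471, each at 1 uM. RNA was taken after 2, 4 or 8 h. Each treatment had 4 arrays at the first 2 times and 3 arrays at 8 h, and the design text attributes the repeats to separate experiments. Every array compared Cy5-labelled spleen cell RNA with Universal Mouse Reference RNA in Cy3, which pools RNA of several sources. The values are log2 ratios of spleen cells over that reference. The base of the logarithm is not stated and was taken as 2 from the range of the values, so a difference of 1 is a doubling under that reading. Between 7908 and 11129 of 16720 probes had a value per array, and the number of arrays limits the precision. The whole spleen was cultured, so fewer cells of a type and less RNA per cell cannot be told apart.

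The question put to these genes was whether the complexes differed between the 3 treatments at each of the 3 times. At 2 h and 4 h no member passed the test for CpG ODN against the control ODN. At 8 h 7 of the 65 did, 3 higher and 4 lower. The assembly factors Ndufaf4 and Ndufaf6 and cytochrome c (Cycs) were higher with CpG ODN. The assembly factor Ndufaf2, the complex I subunits Ndufa13 and Ndufv3 and the complex IV subunit Cox8b were lower. Such differences are between treatments at the same hour and are not changes over time. These 7 were 10.8% of the members, and 10.0% of the 9494 genes tested were called in that comparison, with 4.55% higher and 5.45% lower, so the members were called about as often as genes at large. A gene was called when limma's adjusted p, with the Benjamini-Hochberg adjustment over all genes tested, was below 0.05, and every adjusted p and standard error (SE) below comes from that limma fit. The pooled share was uneven. Of the 6 assembly factors 2 were called higher and 1 lower, and cytochrome c was called higher. Of the subunits, 2 of 22 in complex I (9.09%) and 1 of 14 in complex IV (7.14%) were called, all lower. No subunit of complexes II, III or V was called against the control ODN at 8 h.

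**Figure D1:**
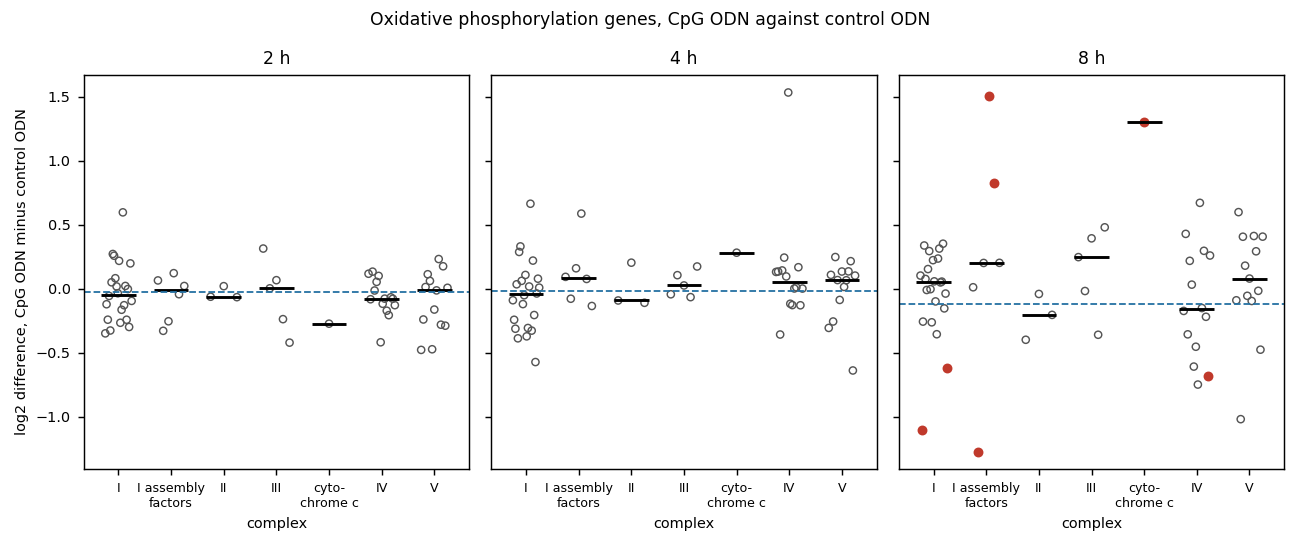
Log2 difference of CpG ODN minus control ODN for each gene except the pseudogene Ndufs5-ps, by complex and culture time; filled points passed the limma test, thick bars are medians of the complex and the dashed line is the median of all genes tested. The 7 filled points all lie at 8 h, and they lie on both sides of 0.

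Among the 22 complex I subunits, 2 were lower with CpG ODN than with the control ODN at 8 h and none was higher. Ndufa13 (also known as GRIM-19), a membrane arm subunit that is also known for roles in cell death, had log2 ratios to the reference of 0.23, -0.96 and -0.37 on the CpG ODN arrays. On the control ODN arrays it had 0.69, 0.90 and 0.61, and in medium 0.26, 0.64 and 0.81. All 3 CpG ODN values lay below those of both control groups, though the highest of them was close to the lowest medium value. The difference from the control ODN was -1.10 ± 0.24 (SE, adjusted p = 0.00221, limma) and that from medium was -0.93 ± 0.24 (adjusted p = 0.00844, limma). When the other groups were left out of the fit, both calls ended (adjusted p = 0.066 and 0.168), and the second also ended without CpG ODN replicate 2 or medium replicate 3 (adjusted p up to 0.114).

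Ndufv3, a small subunit of the NADH-binding tip, had 8 h ratios of -1.76, -1.74 and -1.72 with CpG ODN and of -1.23, -1.06 and -1.07 with the control ODN. The groups did not overlap, and the CpG ODN arrays were the tightest of the 9 groups for this gene. The difference was -0.62 ± 0.19 (SE, adjusted p = 0.0302, limma). Against medium, where the arrays read -1.48, -1.27 and -1.41, it was -0.35 ± 0.19 (adjusted p = 0.246, limma) and did not pass. The call against the control ODN was lost when any 1 of the 6 arrays other than control ODN replicate 1 was left out (adjusted p up to 0.0957). Quantile normalization and a fit without the other groups ended it too (up to 0.193). Ndufv1, the subunit that binds NADH and the flavin, differed by -0.04 (95% interval -0.51 to 0.44). The other 19 subunits of complex I lay between -0.35 for Ndufb5 and 0.35 for Ndufs3 and none of them passed.

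The complex I assembly factors were the group with the widest differences. Of 6 measured, 2 were higher and 1 was lower than with the control ODN at 8 h. These proteins build complex I and are not part of the finished enzyme. Ndufaf4, which acts in the assembly of the membrane and ubiquinone-binding parts, had 8 h ratios of 0.98, 1.00 and 1.18 with CpG ODN. With the control ODN it had -0.59, -0.17 and -0.59. In medium it had -0.58, 0.56 and 0.04. Every CpG ODN array was above every array of both control groups, and the medium arrays were the most scattered at 8 h. The difference was 1.50 ± 0.32 against the control ODN (SE, adjusted p = 0.00167, limma) and 1.05 ± 0.32 against medium (adjusted p = 0.0285, limma). The call against the control ODN held without each of the 6 arrays in turn. That against medium was lost without any 1 of 5 arrays, the exception being medium replicate 2 (adjusted p up to 0.132), and with quantile normalization or without the other groups (up to 0.11).

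Ndufaf6, a factor needed early in complex I assembly, had 8 h ratios of -0.84, -0.92 and -0.55 with CpG ODN and of -1.62, -1.49 and -1.68 with the control ODN. Medium gave -1.60, -0.81 and -1.35. The CpG ODN and control ODN arrays were fully apart, whereas 1 medium array lay among the CpG ODN arrays. Against the control ODN the difference was 0.83 ± 0.21 (SE, adjusted p = 0.0107, limma), and it was no longer called without CpG ODN replicate 3 (adjusted p = 0.0626). Against medium it was 0.48 ± 0.21 and did not pass (adjusted p = 0.151, limma).

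Ndufaf2, a factor that binds a late intermediate of the matrix arm, differed the other way. Its 8 h ratios were 1.44, 0.68 and 1.17 with CpG ODN and 2.52, 2.22 and 2.36 with the control ODN. In medium they were 2.23, 1.98 and 2.00. The 3 CpG ODN arrays were the lowest of the 9 arrays at 8 h, and the control ODN and medium arrays overlapped. The difference of -1.27 ± 0.19 (SE, adjusted p = 2.35e-05, limma) against the control ODN had the smallest p among the members, and against medium it was -0.97 ± 0.19 (adjusted p = 7.21e-04, limma). Both calls held without each of the arrays in turn, and the call against medium ended when the other groups were left out of the fit (adjusted p = 0.087). The remaining factors Ndufaf1, Ndufaf3 and Ndufaf7 lay between 0.01 and 0.20 against the control ODN.

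Cytochrome c (Cycs), the soluble carrier between complexes III and IV that also triggers caspase activation when released into the cytosol, had 8 h ratios of -0.02, 0.38 and 0.42 with CpG ODN. The control ODN arrays gave -1.10, -0.84 and -1.18, and the medium arrays -1.33, -0.09 and -0.64. The CpG ODN arrays were above all others, the nearest being medium replicate 2. The difference was 1.30 ± 0.43 (SE, adjusted p = 0.0481, limma) against the control ODN and 0.95 ± 0.43 (adjusted p = 0.158, limma) against medium, which did not pass. The call was the closest to the threshold of the 7 and was lost when any 1 of the 6 arrays was left out (adjusted p up to 0.138). It was also lost with quantile normalization and without the 4 arrays that carry the lowest database entry numbers (up to 0.0612).

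**Figure D2:**
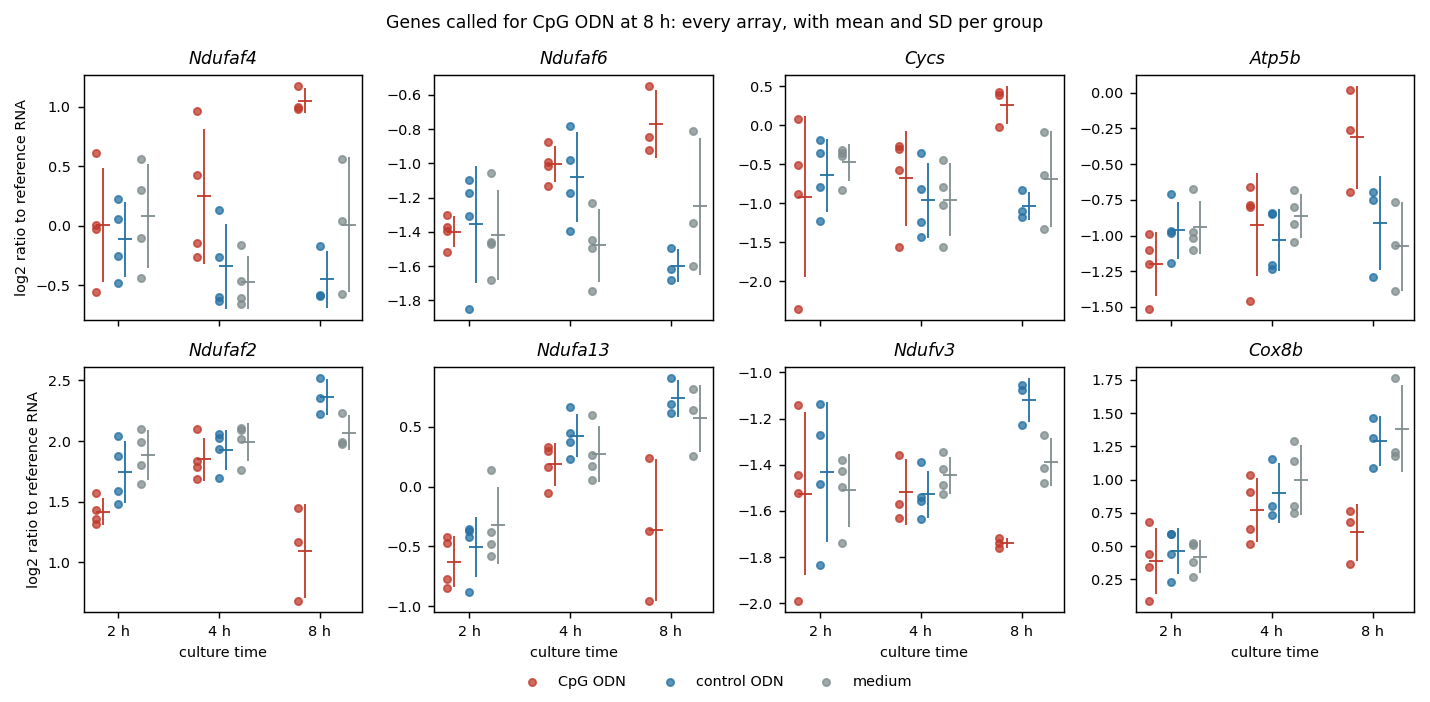
Log2 ratio to the reference RNA on every array for the 8 genes called for CpG ODN at 8 h against the control ODN or medium, by culture time and treatment; the short horizontal lines and vertical bars beside the points are the group mean and SD (n = 4 at 2 h and 4 h, n = 3 at 8 h, fewer where a value is missing), and the vertical scale differs between panels. Ndufaf4, Ndufaf6, Cycs and Atp5b have their highest CpG ODN group mean at 8 h, and for Ndufaf2, Ndufa13, Ndufv3 and Cox8b the 8 h CpG ODN mean lies below both 8 h control means.

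The DNA before the start of these genes is shown for the 4 called genes that differed most in size, and for Sdha as an uncalled gene with a repeated motif. Each line is the 250 bases before the annotated start, 5′ to 3′ on the strand of the gene, from RefSeq on build GRCm38.p6. Capitals mark matches to a motif of the factor NRF1, a known activator of respiratory chain genes.
Ndufaf4 chr4:24897833-24898082 plus strand: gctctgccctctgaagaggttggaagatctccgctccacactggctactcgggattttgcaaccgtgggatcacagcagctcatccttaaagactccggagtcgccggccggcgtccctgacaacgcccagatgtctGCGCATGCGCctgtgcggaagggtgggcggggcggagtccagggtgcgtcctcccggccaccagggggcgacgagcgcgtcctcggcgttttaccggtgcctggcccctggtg
Ndufaf2 chr13:108158626-108158875 minus strand: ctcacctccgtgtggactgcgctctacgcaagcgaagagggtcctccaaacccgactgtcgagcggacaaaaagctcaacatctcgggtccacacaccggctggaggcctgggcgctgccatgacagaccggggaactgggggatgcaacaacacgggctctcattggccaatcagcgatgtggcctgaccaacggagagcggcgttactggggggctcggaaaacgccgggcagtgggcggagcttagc
Ndufa13 chr8:69902021-69902270 minus strand: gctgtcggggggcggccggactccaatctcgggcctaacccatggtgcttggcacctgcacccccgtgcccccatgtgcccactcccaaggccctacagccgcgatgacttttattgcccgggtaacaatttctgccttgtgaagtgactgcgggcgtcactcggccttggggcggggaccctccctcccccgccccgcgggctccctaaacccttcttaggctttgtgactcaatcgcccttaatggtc
Cycs chr6:50566570-50566819 minus strand: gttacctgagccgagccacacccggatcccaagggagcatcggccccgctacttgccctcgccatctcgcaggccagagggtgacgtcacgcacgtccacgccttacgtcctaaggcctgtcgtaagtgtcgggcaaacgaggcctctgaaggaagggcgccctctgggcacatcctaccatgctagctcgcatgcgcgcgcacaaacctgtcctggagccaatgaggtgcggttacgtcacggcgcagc
Sdha chr13:74350241-74350490 minus strand: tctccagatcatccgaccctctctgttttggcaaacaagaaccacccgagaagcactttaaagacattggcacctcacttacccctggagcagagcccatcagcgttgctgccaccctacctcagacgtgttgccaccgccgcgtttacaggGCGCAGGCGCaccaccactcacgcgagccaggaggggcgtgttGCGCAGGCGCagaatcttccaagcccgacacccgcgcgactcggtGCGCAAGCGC
Ndufaf4 held 1 match to this motif (GCGC, any base, then TGCGC, on either strand) in these bases and Sdha held 3. No exact match was found in the stretches of Ndufaf2, Ndufa13 and Cycs. Near matches were not counted, and the Cycs stretch holds tcgcatgcgc, which differs from the motif in its first base only. Windows of 300 bases, running from 250 before to 50 after the start, were found for 56 of the 65 members. On both strands, the NRF1 motif was present in 11 of 56 genes (19.6%), against 5.19% of 27025 genes with a window. Those 27025 are all genes with an annotated window, not only the genes measured here. The ETS motif CCGGAAG was present in 12 (21.4%, against 9.93%) and the YY1 motif AAGATGGC in 8 (14.3%, against 3.19%). At least 1 of the 3 was present in 28 of the 56 members (50%, against 16.4%). By complex, that was 9 of 11 genes with a window in complex V, 11 of 22 in complex I and 2 of 12 in complex IV. Of the 6 called members with a window, Ndufaf4 alone held an exact match to any of the 3. A match is a description of the sequence and not a binding site.

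Complex II had no called member. Sdha, the flavoprotein that oxidizes succinate, read -0.01, -0.20 and 0.05 with CpG ODN and 0.50, 0.17 and 0.36 with the control ODN at 8 h. Those groups did not overlap, and of the medium arrays at 0.15, 0.08 and -0.10 the first and second lay between them. The difference from the control ODN was -0.40 ± 0.19 (SE, adjusted p = 0.203, limma) and that from medium -0.10 ± 0.19. The membrane anchors Sdhc and Sdhd differed from the control ODN by -0.04 and -0.20. For all 3 genes the 95% interval lay within 1 of 0, so a doubling or halving lay outside it.

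Complex III had no called member either. Uqcrq, an accessory subunit, had the highest difference of the complex, 0.48 (95% interval 0.02 to 0.94, adjusted p = 0.198, limma), and Uqcrh, the hinge protein, the lowest, -0.36 (95% interval -1.15 to 0.43). The Rieske iron-sulfur protein Uqcrfs1 read -0.36, -0.36 and -0.03 with CpG ODN against -0.88, -0.62 and -0.44 with the control ODN. The groups did not overlap, but the difference of 0.39 ± 0.31 did not pass (adjusted p = 0.522, limma).

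Of the 14 genes of complex IV, 1 was lower with CpG ODN than with the control ODN at 8 h. Cox8b, the isoform of subunit 8 known from heart and skeletal muscle, had 8 h ratios of 0.68, 0.36 and 0.76 with CpG ODN, 1.09, 1.31 and 1.46 with the control ODN and 1.18, 1.21 and 1.76 in medium. Every CpG ODN array lay below every array of both controls. The difference was -0.68 ± 0.21 (SE, adjusted p = 0.0299, limma) against the control ODN and -0.78 ± 0.21 (adjusted p = 0.0106, limma) against medium. The first call needed CpG ODN replicate 2 and control ODN replicates 2 and 3 (adjusted p up to 0.156 when 1 of them was omitted), and the second was lost without CpG ODN replicate 2 or medium replicate 3 (up to 0.0914). Both ended with quantile normalization and without the other groups in the fit (up to 0.154 and 0.148). The ubiquitous isoform Cox8a differed from the control ODN by -0.22 ± 0.22 (adjusted p = 0.646, limma), and the difference between the isoforms was not tested.

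The other isoforms of complex IV did not pass. The muscle isoform Cox7a1 differed by -0.61 ± 0.27 against the control ODN (adjusted p = 0.171, limma) and the ubiquitous Cox7a2 by -0.45 ± 0.88. Cox7a2 was the noisiest of the members: its values ran from -1.80 to 3.11 over 31 arrays, and its 95% interval reached from -2.26 to 1.36. Cox7a2l, the factor that joins complexes III and IV, read -0.59, -0.74 and -0.25 with CpG ODN against -0.46, 0.58 and 0.55 with the control ODN. Control ODN replicate 1 lay among the CpG ODN arrays, the difference was -0.75 ± 0.31 (adjusted p = 0.139, limma), and without that array it was -1.09 and passed (adjusted p = 0.030). Cox4i1, a large nuclear-encoded subunit, differed by -0.17 ± 0.29, and Cox7b, which had the highest difference in the complex, by 0.67 ± 0.35.

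No gene of complex V was called against the control ODN. Atp5b, the catalytic beta subunit of the F1 head, read -0.70, -0.26 and 0.02 with CpG ODN at 8 h, -1.29, -0.75 and -0.69 with the control ODN and -0.77, -1.39 and -1.06 in medium. The CpG ODN arrays were above all medium arrays and narrowly overlapped the control ODN arrays. Atp5b was called higher against medium, at 0.76 ± 0.23 (SE, adjusted p = 0.0251, limma), and not against the control ODN, at 0.60 ± 0.23 (adjusted p = 0.0952, limma). The call against medium was lost without CpG ODN replicate 2 or 3 or medium replicate 2 or 3 (adjusted p up to 0.141) and without the other groups in the fit (0.183). Without CpG ODN replicate 1 Atp5b passed against the control ODN (0.79, adjusted p = 0.0385). The alpha subunit Atp5a1 differed from the control ODN by -0.09 ± 0.37, and the c ring genes Atp5g1 and Atp5g2 by 0.41 ± 0.20 and 0.18 ± 0.23.

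Against medium at 8 h, 5 members passed: Ndufaf4 and Atp5b were higher with CpG ODN, and Ndufaf2, Ndufa13 and Cox8b were lower. That was 7.69% of the members against 11.8% of 9478 genes. This comparison shares the CpG ODN arrays with that against the control ODN, so the calls of the comparisons are not independent. With the control ODN against medium, no member and no gene at all was called by limma at any time (0%). At an unadjusted p below 0.05 there was 1 member at 2 h (2.48% of all genes), 2 at 4 h (1.83%) and 3 at 8 h (3.98%).

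The intervals show how far members could have differed, and the counts below include the called ones. For CpG ODN against the control ODN at 8 h, the 95% interval lay within 1 of 0, that is short of a doubling or halving, for 43 of the 65 members and for 5157 of all 9494 genes. It did not for 7 of the 14 genes of complex IV, 5 of the 13 of complex V, 2 of the 5 of complex III and 4 of the 22 subunits of complex I. Cytochrome c and 3 of the 6 assembly factors were also among those whose interval passed 1. The widest intervals belonged to Cox7a2 and to Atp5c1, the gamma subunit of the central stalk, at -2.60 to 0.56. These genes had residual SDs of 1.20 and 1.05, and 0.806% of all genes had one above 1. They were picked out after their values were seen.

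**Figure D3:**
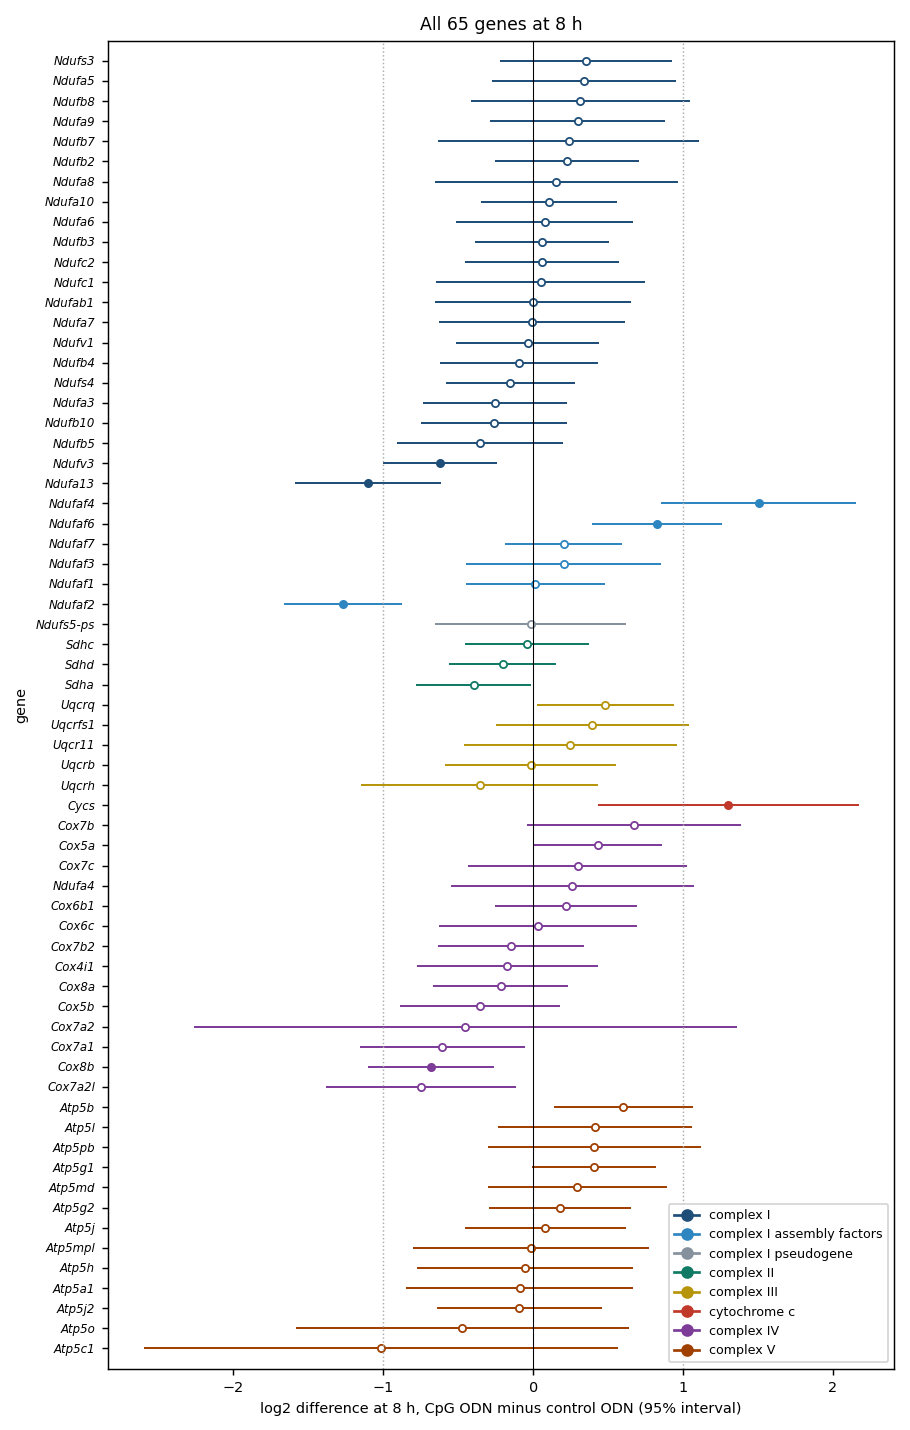
Log2 difference at 8 h, CpG ODN minus control ODN, with its 95% interval from limma for all 65 genes, grouped by complex; filled points passed the test and the dotted lines mark 1 and -1, a doubling and a halving. Most intervals cross 0, and those of Cox7a2 and Atp5c1 are the widest.

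As whole groups, the complexes differed little between treatments. The median difference of CpG ODN minus control ODN at 8 h was 0.05 for complex I, 0.20 for its assembly factors, -0.20 for complex II, 0.25 for complex III, -0.16 for complex IV and 0.08 for complex V. Over all 65 members it was 0.03 and over all genes -0.12, and 45 of the 65 lay above the median of all genes. Against medium the medians were -0.10 for complex I, 0.24 for the assembly factors, -0.05 for complex II, 0.27 for complex III, -0.19 for complex IV and -0.02 for complex V, with -0.13 over all genes. There 35 of the 65 lay above the median of all genes, and for the control ODN against medium at 8 h 21 of the 65 did. At 2 h the medians against the control ODN lay between -0.08 for complex IV and 0.00 for complex III, and at 4 h between -0.09 for complex II and 0.09 for the assembly factors. The signs at 8 h against the control ODN were not stable for complexes I and IV: the median of complex IV was 0.24 over its 8 genes with a value on every array and reached 0.0606 without control ODN replicate 2, and that of complex I was -0.02 without control ODN replicate 3. These are descriptions of small groups of genes measured on the same arrays, and no test was made of them.

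The means of the subunits with a value on every array show the spread behind these medians. Complex II had a mean ratio of -0.81 ± 0.12 with CpG ODN at 8 h, -0.60 ± 0.05 with the control ODN and -0.85 ± 0.07 in medium (SD, n = 3 each), so the control ODN arrays stood apart from both other groups. Complex V had -0.74 ± 0.30, -0.91 ± 0.30 and -0.84 ± 0.37, and its 3 groups overlapped. Complex IV had -0.69 ± 0.28 with CpG ODN and -0.81 ± 0.36 with the control ODN at 8 h, so over these 8 genes the CpG ODN mean was the higher one, and the groups overlapped. In medium complex IV ran from -1.21 to -0.15 over 3 arrays, a wider range than the distance between any of its group means.

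**Figure D4:**
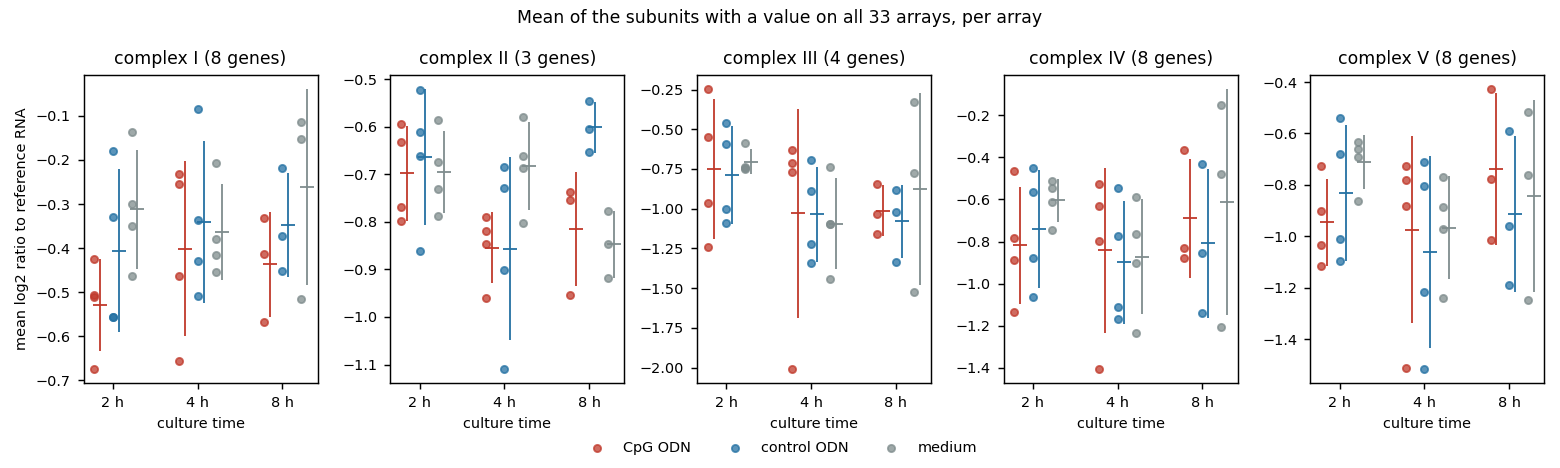
Mean log2 ratio to the reference RNA over the subunits of each complex that had a value on all 33 arrays, 1 point per array, by culture time and treatment; short horizontal lines and bars give the group mean and SD (n = 4 at 2 h and 4 h, n = 3 at 8 h), and the vertical scale differs between panels. Groups overlap in most panels, and the lowest point of complex III, at -2.01, is CpG ODN replicate 2 at 4 h.

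At the earlier times no member was called by limma. At 2 h against the control ODN 0 of 65 passed, where 0.0430% of 9302 genes were called, and 0 members had an unadjusted p below 0.05 (2.29% of all genes). Against medium 0 passed (0.0420% of all genes), and 3 had an unadjusted p below 0.05 (5.52%). At 4 h 0 passed against the control ODN (0.384% of all genes) and 0 against medium (0.218%). At an unadjusted p below 0.05 there were 1 member against the control ODN (3.17% of all genes) and 5 against medium (4.84%). Ndufaf4 differed from the control ODN by 0.59 ± 0.27 and from medium by 0.72 ± 0.27 at 4 h, and neither passed (adjusted p = 1 and 0.725, limma).

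2 arrays stood apart, 1 at 4 h and 1 at 8 h. On CpG ODN replicate 2, 9 of 63 measured members (14.3%) lay more than 1 below the median of their group, against 2.39% of all genes on that array. They came from complexes III to V for the most part: Uqcr11, an accessory subunit of complex III, was 1.56 below its group median, Uqcrfs1 1.43 and Atp5h, of the peripheral stalk of the ATP synthase, 1.36. The mean of complex III there was -2.01, while the other 3 arrays of the group lay between -0.77 and -0.63. Without that array the median difference from the control ODN at 4 h moved from 0.03 to 0.29 for complex III, from 0.05 to 0.23 for complex IV and from 0.07 to 0.27 for complex V, and that of all genes stayed at -0.01. No member was called with or without it. Replicate 2 was also the lowest array of the control ODN and medium groups at 4 h for the means of complexes III, IV and V. These were -1.34, -1.17 and -1.52 with the control ODN and -1.44, -1.24 and -1.24 in medium. Those arrays stayed in when the CpG ODN array was left out, so the moved medians set unlike repeats against each other. A fit without replicate 2 of every treatment was not made.

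On medium replicate 2 at 8 h, 4.21% of all genes lay more than 1 below the median of their group, the highest share of the 33 arrays, and limma gave it the lowest array weight (0.284). Of the members 1 of 63 did (1.59%). As a set the members read high there, with a median deviation from the group median of 0.24, the highest of the 33 arrays. On medium replicate 1 at 8 h that deviation was -0.27. Every 8 h comparison with medium includes these arrays. Without replicate 2, in CpG ODN against medium, Ndufaf4 (1.32), Ndufaf2 (-1.02), Ndufa13 (-0.90) and Cox8b (-0.87) kept their calls (adjusted p up to 0.0359, limma). Atp5b did not (0.60, adjusted p = 0.141, limma). For 8 h against 2 h in medium, described next, the 3 calls became 2, without Ndufaf1 (0.42, adjusted p = 0.263, limma).

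Change over culture time was tested within each treatment, 8 h against 2 h. With CpG ODN 6 rose and none fell, which is 9.23% of members. Of 9524 genes 16.6% were called, 8.45% higher and 8.13% lower. Atp5b rose by 0.89 ± 0.21 (adjusted p = 0.00349, limma), Ndufaf4 by 1.04 ± 0.30 and the c ring gene Atp5g2 by 0.76 ± 0.22. Ndufaf6 rose by 0.63 ± 0.20, Cycs by 1.18 ± 0.40 and the complex IV subunit Cox5a by 0.57 ± 0.20. The rise of Atp5b held without each of the 7 arrays in turn. The other 5 were lost without 1 or more of them: Ndufaf4 without 2 h replicate 2 or 8 h replicate 3 (adjusted p up to 0.066) and Atp5g2 without 8 h replicate 2 or 3 (up to 0.0575). Ndufaf6 was lost without 2 h replicate 1 or 3 or 8 h replicate 3 (up to 0.162), and Cycs without 2 h replicate 1 or 2 or 8 h replicate 2 or 3 (up to 0.186). Cox5a was lost without any of 5 arrays, the exceptions being 2 h replicate 4 and 8 h replicate 1 (up to 0.169). Without the 4 arrays of the lowest entry numbers Ndufaf6, Cycs and Cox5a were lost, and the last pair also without the other groups in the fit (up to 0.0509, 0.102 and 0.106).

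Cell type markers moved over the same hours. With CpG ODN 7 of 13 monocyte and macrophage markers were lower at 8 h than at 2 h (median of the list -1.32), as were 2 of 9 neutrophil markers (-1.76), 3 of 8 erythroid markers (-0.56) and 2 of 15 B cell markers (-0.25), and none of these was higher. With the control ODN 3 of 12 monocyte and macrophage markers were lower, with 1 of 9 neutrophil and 1 of 8 erythroid markers, and in medium 3 of 13, 0 of 9 and 3 of 8. A few other markers were called. Of the T cell markers 1 of 13 was higher and 1 lower with CpG ODN. With the control ODN 2 of 12 were higher, and in medium 2 of 13. The control ODN also had 1 of 15 B cell and 1 of 7 platelet markers higher, and medium 1 of 7 platelet markers. Of 7 NK cell markers 1 was lower with CpG ODN. Of all genes 8.45% were called higher with CpG ODN, 7.61% with the control ODN and 9.26% in medium. The shares called lower were 8.13%, 2.48% and 5.30%. Counts of 1 or 2 markers in a list are too few to set apart from these shares. The medians over all genes were -0.05, -0.01 and 0.03 with CpG ODN, the control ODN and medium. The part of these shifts in the changes of the members was not tested.

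With the control ODN, Ndufa13 rose by 1.24 ± 0.22 (adjusted p = 3.09e-04, limma), Cox8b by 0.82 ± 0.19 and Ndufaf2 by 0.62 ± 0.18, and none fell. These were 4.62% of members, and of 9269 genes 10.1% were called, 7.61% higher and 2.48% lower. In medium, Cox8b rose by 0.96 ± 0.19 (adjusted p = 9.42e-04, limma), Ndufa13 by 0.89 ± 0.22 and Ndufaf1, an early assembly factor, by 0.64 ± 0.21, and none fell. That was again 4.62% of members, and of 9475 genes 14.6% were called, 9.26% higher and 5.30% lower. With CpG ODN the 8 h minus 2 h difference was 0.26 ± 0.22 for Ndufa13, 0.22 ± 0.19 for Cox8b and -0.32 ± 0.18 for Ndufaf2, and none of these passed. The rise of Ndufaf2 was lost without control ODN 2 h replicate 1 or 2 or 8 h replicate 1 or 3 (adjusted p up to 0.0866). It was also lost with quantile normalization (0.29, adjusted p = 0.517), with array weights, without the 4 arrays and without the other groups. The rise of Cox8b with the control ODN was lost without the other groups (0.0553). The rise of Ndufa13 in medium was lost without 8 h replicate 3 (0.0533) or the other groups (0.0774), and that of Ndufaf1 without 2 h replicate 1, 2 or 4 or 8 h replicate 2 or 3 (up to 0.263), with no centring and without the other groups (up to 0.171).

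The change of the difference between CpG ODN and control ODN from 2 h to 8 h was tested directly. Only Ndufaf2 passed, at -0.94 ± 0.25 (adjusted p = 0.0318, limma), which is 1 of 65 members (1.54%) against 3.26% of 9141 genes. Its difference went from -0.33 at 2 h to -1.27 at 8 h. The call was lost without any 1 of 7 of the 14 arrays, with the adjusted p then up to 0.155. With CpG ODN these were replicate 4 at 2 h and replicates 2 and 3 at 8 h, and with the control ODN replicates 1 and 2 at 2 h and 1 and 3 at 8 h. It was also lost with quantile normalization (-0.87, adjusted p = 0.178) and without the 4 arrays of the lowest entry numbers (-0.73, adjusted p = 0.187). The change was 1.38 ± 0.42 for Ndufaf4 (adjusted p = 0.068), -0.98 ± 0.32 for Ndufa13 (0.0928), 0.87 ± 0.28 for Ndufaf6 (0.0946) and 1.57 ± 0.56 for Cycs (0.145), and none of these passed in limma.

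The arrays of the CpG ODN and control ODN groups did not overlap at 8 h for 11 of the 65 members. The 5 higher with CpG ODN were Ndufaf4, Ndufaf6, Cycs, Uqcrfs1 and Cox5a, and the 6 lower were Ndufa13, Ndufv3, Ndufaf2, Sdha, Cox5b and Cox8b. Over all genes 30.1% did not overlap, 10.8% higher and 19.3% lower.

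Genes around the pathway were described from lists, whose counts stand beside the 10.0% of all genes called against the control ODN and the 11.8% against medium. Of 22 measured assembly factors beyond the Nduf symbols and related genes, 2 were higher and 1 was lower at 8 h than with the control ODN. Sco1, which delivers copper to complex IV, was higher by 1.37 ± 0.22, and Lrpprc, which stabilizes mitochondrial transcripts, by 0.79 ± 0.26. Surf1, another complex IV factor, was lower by 0.79. The list median was 0.32, against -0.12 over all genes. Of 16 genes of the citric acid cycle and pyruvate dehydrogenase, Idh3a, a subunit of the NAD-dependent isocitrate dehydrogenase, was higher by 1.28 ± 0.26. Mdh2, the mitochondrial malate dehydrogenase, was lower by 0.82, and the list median was 0.05. Of 20 glycolysis genes, the hexokinase Hk2 was higher by 1.17 ± 0.21 and the lactate dehydrogenase subunit Ldhb lower by 0.77, with a median of 0.09. Of 13 regulators of mitochondrial biogenesis, Pprc1, a coactivator related to PGC-1, was higher by 1.07 ± 0.20 (list median -0.06). Of 9 mitochondrial carriers and channels, the oxoglutarate carrier Slc25a11 was lower by 0.79 (list median -0.08). Against medium the numbers higher and lower were 2 and 3 for assembly factors, 2 and 0 for the citric acid cycle, 2 and 1 for glycolysis, 1 and 1 for the regulators and 0 and 0 for the carriers. Of the genes named from these lists, Lrpprc (0.51), Mdh2 (-0.08) and Slc25a11 (-0.39) did not pass against medium (adjusted p = 0.223, 0.877 and 0.213, limma). The others passed there in the same direction. Over culture time, 8 h against 2 h, the glycolysis list moved in every treatment. With CpG ODN 9 of 20 genes were higher and 2 lower (list median 1.02). With the control ODN 7 of 18 were higher and 0 lower (1.03), and in medium 8 of 20 were higher and 2 lower (0.50).

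Markers of cell types moved at the same time. At 8 h against the control ODN 5 of 15 measured B cell markers and 4 of 13 T cell markers were lower. So were 3 of 12 monocyte and macrophage markers, and no marker of these cell types was higher. Of all genes 5.45% were called lower and 4.55% higher. Of 7 NK cell markers 1 was higher, too few to set apart from that share. The 1 NK cell marker with a value on every array had a lower mean with CpG ODN. It ran from 3.16 to 4.11 there and from 3.51 to 4.67 with the control ODN. The mean of the 7 B cell markers with a value on every array ran from 1.63 to 2.06 with CpG ODN, from 2.51 to 2.86 with the control ODN and from 2.40 to 2.86 in medium. That of 7 monocyte and macrophage markers ran from -0.72 to -0.07, from 0.18 to 0.73 and from -0.06 to 0.53. None of 5 dendritic cell, 9 neutrophil and 8 erythroid markers was called, and of 8 platelet markers 1 was higher and 1 lower. The part of these shifts in the results for the members was not tested.

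Against the reference, most members were lower in spleen cells. The mean ratio over all arrays was below 0 for 18 of 22 complex I subunits, 10 of 14 genes of complex IV and all 13 of complex V, with medians of -0.53, -0.64 and -0.63. Ndufaf2 at 1.81, Ndufc2 at 1.23 and Ndufa3 at 1.01 had the highest ratios. The ratio depends on the sources in the reference pool and on the dyes, which were not swapped, and it does not rank genes by abundance. Members varied together from array to array after the group means were removed: over 38 members with a value on every array the median pairwise correlation was 0.48, against 0.013 over 4612 such genes. Atp5j2 (0.787), Cox7c (0.785) and Uqcrb (0.75) had the highest median correlation with the other members, and Ndufa3, Atp5g2 and Ndufc2 had values below 0. All points share the array, the reference and the centring, and the correlations are given without a test.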

How the data were processed

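Of 33 arrays, all were used. The deposited values are log2 ratios of Cy5 over Cy3, 1 per probe and array. How the authors corrected background, filtered spots and normalized is not given in the sources used here. Array medians lay between -0.085 and 0.024. Symbols came from the platform annotation (14656 probes with 1 symbol, 6 with several and 2058 with none, the last 2 left out). For 511 genes with several probes the probe with the fewest missing values was used.

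The median of each array was subtracted. All 9 groups entered 1 group-means model per gene in limma 3.58.1 (R 4.3.3), whose moderated p-values were adjusted by Benjamini-Hochberg within each comparison. A gene needed 2 measured arrays per compared group, and missing values were not imputed. The script was tested on simulated data. Figures were drawn with matplotlib 3.10.9.

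Members and lists were chosen with earlier results of these data known. Genes were named by a rule: per complex, up to 5 members called against the control ODN, the highest and lowest difference at 8 h, catalytic and electron-carrying subunits, isoforms, up to 2 members called against medium or over time, and up to 2 genes per metabolic list. Uncalled genes named for spread, overlap, correlation, reference ratio or a departing array fall outside it and were chosen after their values were seen.

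Repeat numbers appear in every group. After group means were removed, same-numbered arrays correlated above 0.1 in all pairs only for the control ODN and medium at 8 h (0.484 to 0.653, 3 pairs), where a block left the count of members called at 0. Alternatives covered scaling, block, array weights, missing values, probes, unnamed probes, samples fitted and single arrays.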

Additional observations from a re-analysis of the deposited data

Results flagged for a closer look

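In groups of 4 arrays, a single array lay far from the other 3 in 14 of 189 groups of values examined, where chance gives about 1 in 20. The values are log2 ratios to the reference. At 2 h in medium, Atp5o read -2.41 on replicate 1, Cox7a1 0.80 and Cycs -0.83 on replicate 2, and the mean of complex III was -0.58 on replicate 1. Ndufa13 read -0.88 on control ODN replicate 1 at 2 h. At 4 h with CpG ODN, replicate 2 gave -2.30 for Ndufa4, -1.75 for Uqcrfs1 and -2.01 for the mean of complex III, and replicate 3 gave -1.65 for Atp5o and 2.84 for Cox7a2. Sdha read -0.37 on control ODN replicate 2 at 4 h. In medium at 4 h, replicate 2 gave -0.74 for Atp5a1 and 0.46 for Uqcrq, and the mean of the complex I assembly factors was -0.35 on replicate 4. Of these 14 values, 3 came from CpG ODN replicate 2 at 4 h.

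The difference of Ndufaf2 between CpG ODN and control ODN changed by -0.94 from 2 h to 8 h in limma's test of the change.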

How the results depend on the processing

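None of the genes named from a test, where called, changed its direction under an alternative. For CpG ODN against the control ODN at 8 h, the 7 members called became 4 with quantile normalization (2 higher, 2 lower) and 4 when the other groups were left out of the fit (3 higher, 1 lower). Against medium at 8 h the 5 became 11 with array weights and 0 without the other groups. For 8 h against 2 h, the 6 members called with CpG ODN became 13 with array weights (9 higher, 4 lower) and 3 without the 4 arrays of the lowest database entry numbers. Without the other groups the 3 called with the control ODN became 1, as did the 3 in medium, which became 8 with array weights (3 higher, 5 lower). The change from 2 h to 8 h, 1 call, became 4 with array weights, 2 with genes measured on every array and 0 without the 4 arrays, where 49 members could be tested. The median of complex IV at 8 h against the control ODN turned from -0.16 to 0.24 over the 8 genes measured on every array. Single arrays also turned the medians of complexes I and IV. The median of all members for CpG ODN at 8 h against 2 h went from -0.03 to 0.09 with quantile normalization. The share of all genes called under each alternative, block or left-out array is not given here. These counts therefore do not show whether members moved more than genes at large. The causes were not tested.

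With the repeat number as a replicate block within each time, at 8 h the count against the control ODN was 9 (3 higher, 6 lower), 10 against medium (4 higher, 6 lower) and 4 for the change from 2 h to 8 h. With a block shared across times the last count was 2. In 1 of the 9 pairs of groups every array correlated best with its own number. The block added Cox7a2l (-0.75, adjusted p = 0.0122, limma) and Cox7a1 (-0.61, adjusted p = 0.0357, limma) at 8 h against the control ODN. Atp5b passed there with array weights (0.60, adjusted p = 0.0483, limma).

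Leaving out single arrays gave 4 to 7 members against the control ODN at 8 h, 1 to 7 against medium, 1 to 8 for CpG ODN over time, 2 to 4 for the control ODN, 1 to 5 for medium and 0 to 2 for the change. The 8 h medians against the control ODN ran from -0.02 to 0.12 for complex I, 0.08 to 0.27 for its assembly factors, -0.30 to -0.14 for complex II, 0.19 to 0.35 for complex III, -0.23 to 0.0606 for complex IV and 0.02 to 0.25 for complex V. Leaving out CpG ODN replicate 2 at 4 h was added after seeing the data. Signal over background was not analysed here, so how it limits dim probes is unknown, and 3 arrays per group limit the 8 h results.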

Other observations

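Among the members, Ndufc2 and Ndufa3, both of the membrane arm of complex I, had a second measured probe. At 8 h, CpG ODN minus control ODN, the probe used for Ndufc2 gave 0.06 ± 0.25 (SE) and the other -0.28 ± 0.45. For Ndufa3 the probes gave -0.26 ± 0.23 and -0.10 ± 0.37. Against medium the Ndufc2 probes gave 0.63 and -0.05 and the Ndufa3 probes -0.20 and 0.06, so there the sign depended on the probe for both genes.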
